A study of Mus musculus with 32 samples.

Results

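The atria examined here are those with a high level of Bmp10 in 2 of the genotypes of a study of mouse hearts. They were 4 atria of dnPI3K mice, which carry phosphoinositide 3-kinase in dominant negative form, and 4 atria of non-transgenic mice (Ntg), 1 from each of 8 animals. The atria were chosen by a measured value, a Bmp10 signal above 9 log2, whatever side their label gave, and they make up 8 of the 32 arrays of the series. The whole series holds 2 arrays from each of 16 animals in 4 genotypes, and the mice with the kinase Mst1, alone or with dnPI3K, enter here only through an alternative fit. All mice had a mixed C57BL/6 and FVB/N background and ate standard chow. The labels name no promoter for the transgenes and no age or sex, and they do not say which part of PI3K was made dominant negative. Transcripts were measured on Affymetrix Mouse Gene 1.0 ST arrays from 100 ng of total RNA, and every level below is a log2 signal as deposited. A difference of 1 on this scale is a doubling.

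Bmp10 encodes a secreted growth factor of the BMP family, which the adult mouse heart is known to make mainly in the right atrium. In the atria selected on it, Bmp10 had 12.77, 12.35, 12.54 and 12.65 log2 in the dnPI3K animals 1507, 1648, 1660 and 3241. It had 12.31, 12.52, 12.28 and 12.51 log2 in the Ntg animals 1301, 1657, 1662 and 1834. The lowest value inside the threshold was 12.28 and the highest outside it in these 8 animals was 6.13, so no array lay near the limit. The other atrium of each animal had 4.31 to 6.13 log2 in dnPI3K and 4.74 to 5.62 log2 in Ntg. These values chose the atria and are given as a description. The labelled side did not follow Bmp10. All 4 dnPI3K atria were labelled left, whereas those of Ntg 1657 and 1834 were labelled left and those of Ntg 1301 and 1662 right. Genotype and labelled side are therefore partly confounded, and fits with the labelled side are given beside the results. With Bmp10 known from the right atrium and 6 of these 8 arrays labelled left, the labels may not give the true side. This was not tested, and those fits take the labels as they stand.

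**Figure D1:**
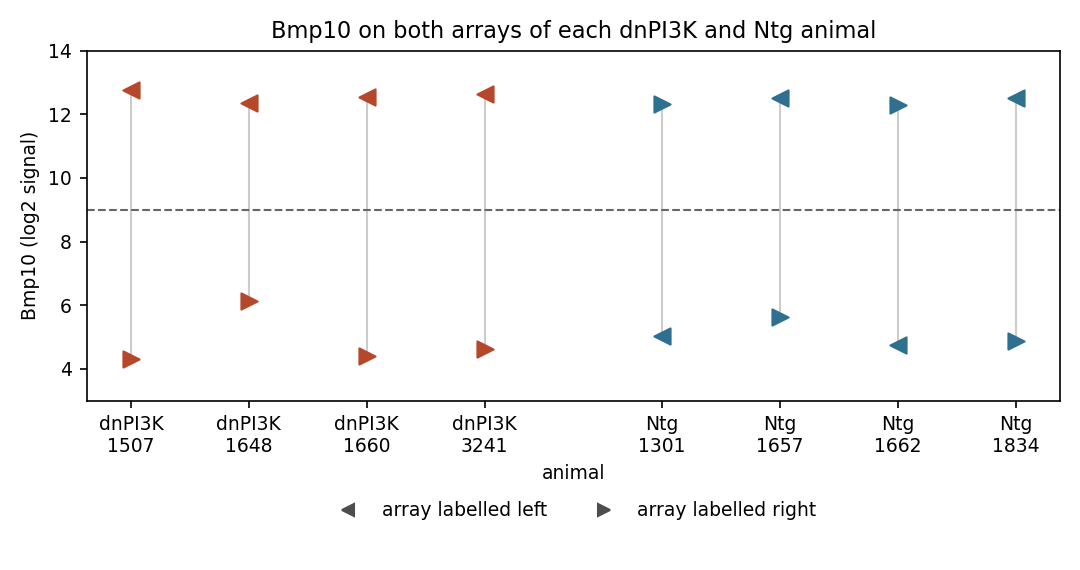
Bmp10 log2 signal (vertical axis) on both arrays of each dnPI3K and Ntg animal (horizontal axis), with triangles pointing left or right for the labelled side and a dashed line at the threshold of 9. Every animal has 1 array above 12 and 1 below 7, and the upper array is labelled left in 6 of the 8 animals.

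The median signal of the 8 arrays lay between 5.52 and 5.68 log2, and their pairwise correlations between 0.9579 and 0.9881. The arrays of dnPI3K 3241 and Ntg 1662 differed most from their groups, with estimated array weights of 0.318 and 0.58 against 0.950 to 2.45 for the other 6. Of 20 atrial markers, among them Bmp10, which chose the arrays, 14 had negative differences (median -0.09 log2), 2 fell (Myl1 and Cpne5) and none rose. These signs compare the genotypes and do not test atrial identity. The atrial peptide gene Nppa had 13.22 to 13.50 log2 in dnPI3K and 13.24 to 13.44 log2 in Ntg, and the atrial light chain gene Myl7 12.23 to 12.57 log2 in dnPI3K and 12.50 to 12.67 log2 in Ntg. Myl2, the ventricular light chain gene, reached 10.70 log2 in dnPI3K 1648 and 8.15 log2 in Ntg 1301, against 5.21 to 6.56 log2 in the other 3 dnPI3K atria and 5.22 to 6.19 log2 in the other 3 Ntg atria.

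PI3K turns signals from insulin, insulin-like growth factor and other receptors into the lipid messenger that recruits the kinase Akt. Akt favours protein synthesis, glucose use and growth of the heart muscle cell, and it holds the FoxO transcription factors out of the nucleus. A dominant negative form blocks the normal enzyme, and hearts with less PI3K activity are known for smaller size and for weaker protection under stress. PI3K activity itself was not measured.

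Among 15219 genes tested with limma, 138 passed an adjusted p of 0.05, which is 0.907% of all tested. Of these, 37 were higher (0.243%) and 101 lower (0.664%) in dnPI3K than in Ntg, and 7 rises and 19 falls were at least 2-fold. At an unadjusted p under 0.05, 541 of the 15219 genes were higher and 1281 lower, and counts at this p in gene lists below are to be read beside these. The median difference of all genes was -0.03 log2, so negative signs were the more common over all genes. The 4 dnPI3K values all lay above the 4 Ntg values for 318 genes (2.09%) and all below for 848 genes (5.57%), and 135 of the 138 called genes were among these. The exceptions were Kcnc2, Tspan6 and Arhgef26. With quantile normalization 54 of 128 calls were higher (42.2%), against 26.8% as deposited. In whole atria, a change in the number of cells of a type and a change in RNA per cell cannot be told apart. The groups of the 60 called genes named by rule did not overlap, so leaving out arrays could not change their direction. Of these 60 genes, 17 kept their call in every one of the 21 alternatives that tested them, and none changed its direction. Those higher in dnPI3K were Adamts8, Ndnf, Nrg1, Kcnh7, Lgals3, Slc16a7, Camk1g and Adamts15, and those lower were Igsf1, Nt5c1a, Padi2, Cntfr, Cyp2b10, Ckmt2, Slc17a7, Eno3 and Slc36a2. With the labelled side in the model, where the estimate rests on the 2 Ntg atria labelled left, 47 genes were called, and on arrays labelled left alone (4 against 2) 32. Of the 60 genes, 28 and 22 were called in these fits, 50 with each array centred on its median, 50 with quantile normalization and 47 with all 4 genotypes in the fit. The count was 68 without Ntg 1657, 77 without dnPI3K 1648, 83 without Ntg 1301, 88 without Ntg 1834 and 91 without dnPI3K 1507.

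Among the genes with large rises were secreted factors, a lectin and an ion channel. Adamts8 had 8.01, 7.83, 7.39 and 7.00 log2 in the dnPI3K atria, against 5.83, 6.13, 5.68 and 5.67 log2 in the Ntg atria. Adamts8, a secreted metalloprotease with thrombospondin repeats, was 3.31-fold higher (1.73 ± 0.19 log2, SE, adjusted p = 0.000692). Ndnf had 8.64, 8.50, 8.61 and 8.45 log2 in the dnPI3K atria, against 7.28, 7.24, 7.02 and 7.52 log2 in the Ntg atria. Ndnf, a secreted neurotrophic factor, was 2.43-fold higher (1.28 ± 0.12 log2, adjusted p = 0.000228), with the 4 dnPI3K atria within 0.2 log2 of each other. Nrg1 had 6.32, 6.74, 6.30 and 6.67 log2 in the dnPI3K atria, against 5.23, 4.78, 5.75 and 5.24 log2 in the Ntg atria. Nrg1, the neuregulin that signals to muscle cells through ErbB receptors, was 2.39-fold higher (1.26 ± 0.18 log2, adjusted p = 0.00387). Lgals3 had 8.77, 8.76, 8.75 and 8.66 log2 in the dnPI3K atria, against 7.28, 7.58, 7.96 and 7.53 log2 in the Ntg atria. Lgals3, which encodes galectin-3, a lectin of macrophages and stressed hearts, was 2.22-fold higher (1.15 ± 0.13 log2, adjusted p = 0.00079). Kcnh7 had 6.65, 7.02, 6.79 and 6.94 log2 in the dnPI3K atria, against 5.30, 5.81, 5.60 and 5.78 log2 in the Ntg atria. Kcnh7, a voltage-gated potassium channel of the erg family, was 2.34-fold higher (1.23 ± 0.14 log2, adjusted p = 0.000692). These 5 genes were taken from called genes whose groups did not overlap, so their separation follows from the choice.

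Further rises came in transporters, kinases and matrix proteins. Slc16a7, a transporter of pyruvate and lactate, lay at 7.74 to 8.08 log2 in dnPI3K and 6.37 to 7.08 log2 in Ntg and rose 2.16-fold (1.11 ± 0.15 log2, adjusted p = 0.00221). Camk1g, a calmodulin-dependent kinase, lay at 6.44 to 6.54 log2 in dnPI3K and 5.43 to 5.68 log2 in Ntg and rose 1.97-fold (0.98 ± 0.11 log2, adjusted p = 0.000692). Adamts15, a protease related to Adamts8, lay at 6.87 to 7.44 log2 in dnPI3K and 6.00 to 6.49 log2 in Ntg and rose 1.92-fold (0.94 ± 0.15 log2, adjusted p = 0.00544). Dusp4, a phosphatase that switches off MAP kinases, rose 1.91-fold (0.93 ± 0.15 log2, adjusted p = 0.00637) and Frem2, a basement membrane protein, 1.89-fold (0.92 ± 0.14 log2, adjusted p = 0.00457). Neither Dusp4 (adjusted p = 0.109) nor Frem2 (adjusted p = 0.0566) was called with the labelled side in the model. Phlda1, a gene induced by MAP kinase signals, had 7.21, 7.68, 7.47 and 7.41 log2 in dnPI3K, against 6.10, 5.54, 6.98 and 6.18 log2 in Ntg. It rose 2.37-fold (1.24 ± 0.22 log2, adjusted p = 0.0152), with Ntg 1662 the highest of the Ntg atria, and missed the threshold without dnPI3K 1648 or 1660 (adjusted p up to 0.0667).

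Among the genes with large falls were a Wnt inhibitor, membrane proteins, enzymes and a growth factor binding protein. Sfrp5 had 5.54, 5.12, 5.89 and 5.10 log2 in the dnPI3K atria, against 7.91, 7.40, 5.98 and 7.53 log2 in the Ntg atria. Sfrp5, a secreted inhibitor of Wnt signals, was 3.47-fold lower (-1.79 ± 0.32 log2, adjusted p = 0.0134), and Ntg 1662 lay close to the dnPI3K atria. Cpne5 had 5.95, 5.94, 6.49 and 6.27 log2 in the dnPI3K atria, against 8.37, 8.28, 6.69 and 8.20 log2 in the Ntg atria. Cpne5, a calcium-dependent membrane-binding protein, was 3.3-fold lower (-1.72 ± 0.29 log2, adjusted p = 0.00982), again with Ntg 1662 near the dnPI3K atria. Without Ntg 1662 the differences were -2.20 ± 0.19 log2 for Sfrp5 and -2.12 ± 0.15 log2 for Cpne5. With robust eBayes neither Sfrp5 (adjusted p = 0.105) nor Cpne5 (adjusted p = 0.0748) was called. Sfrp5 also missed the threshold without Ntg 1657, Ntg 1834 or dnPI3K 1648 (adjusted p up to 0.0597). Igsf1 had 4.44, 4.35, 4.61 and 4.53 log2 in the dnPI3K atria, against 6.25, 6.40, 6.14 and 5.95 log2 in the Ntg atria. Igsf1, a membrane glycoprotein with immunoglobulin domains, was lower in dnPI3K (-1.70 ± 0.13 log2, adjusted p = 3.13e-05). Its dnPI3K mean of 4.48 log2 lay at the filter on low signals, so no fold is given. Igfbp5 had 10.33, 9.85, 10.21 and 9.49 log2 in the dnPI3K atria, against 11.42, 11.47, 10.88 and 10.90 log2 in the Ntg atria. Igfbp5, which binds insulin-like growth factors, was 2.29-fold lower (-1.20 ± 0.18 log2, adjusted p = 0.00446).

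Nt5c1a had 6.02, 5.89, 6.17 and 5.54 log2 in the dnPI3K atria, against 7.17, 7.18, 6.82 and 7.35 log2 in the Ntg atria. Nt5c1a, which makes adenosine from AMP, was 2.33-fold lower (-1.22 ± 0.15 log2, adjusted p = 0.00138). Padi2 had 4.77, 4.74, 4.94 and 5.28 log2 in the dnPI3K atria, against 6.16, 6.22, 6.00 and 6.15 log2 in the Ntg atria. Padi2, an enzyme that converts arginine in proteins to citrulline, was 2.3-fold lower (-1.20 ± 0.13 log2, adjusted p = 0.000692). As for the other large falls, the choice of genes required that the groups did not overlap. Cntfr, the receptor of ciliary neurotrophic factor, lay at 7.32 to 8.07 log2 in dnPI3K and 8.53 to 9.19 log2 in Ntg and fell 2.2-fold (-1.14 ± 0.17 log2, adjusted p = 0.00446). Slc17a7, a vesicular glutamate transporter, lay at 8.05 to 8.75 log2 in dnPI3K and 9.45 to 9.70 log2 in Ntg and fell 2.07-fold (-1.05 ± 0.14 log2, adjusted p = 0.00225). The receptor gene Mrgprh fell 2.1-fold (-1.07 ± 0.18 log2, adjusted p = 0.0101). The cytochrome P450 gene Cyp2b10 fell as well (-1.12 ± 0.15 log2, adjusted p = 0.00191), and no fold is given because its dnPI3K mean of 4.50 log2 lay at the filter on low signals.

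**Figure D2:**
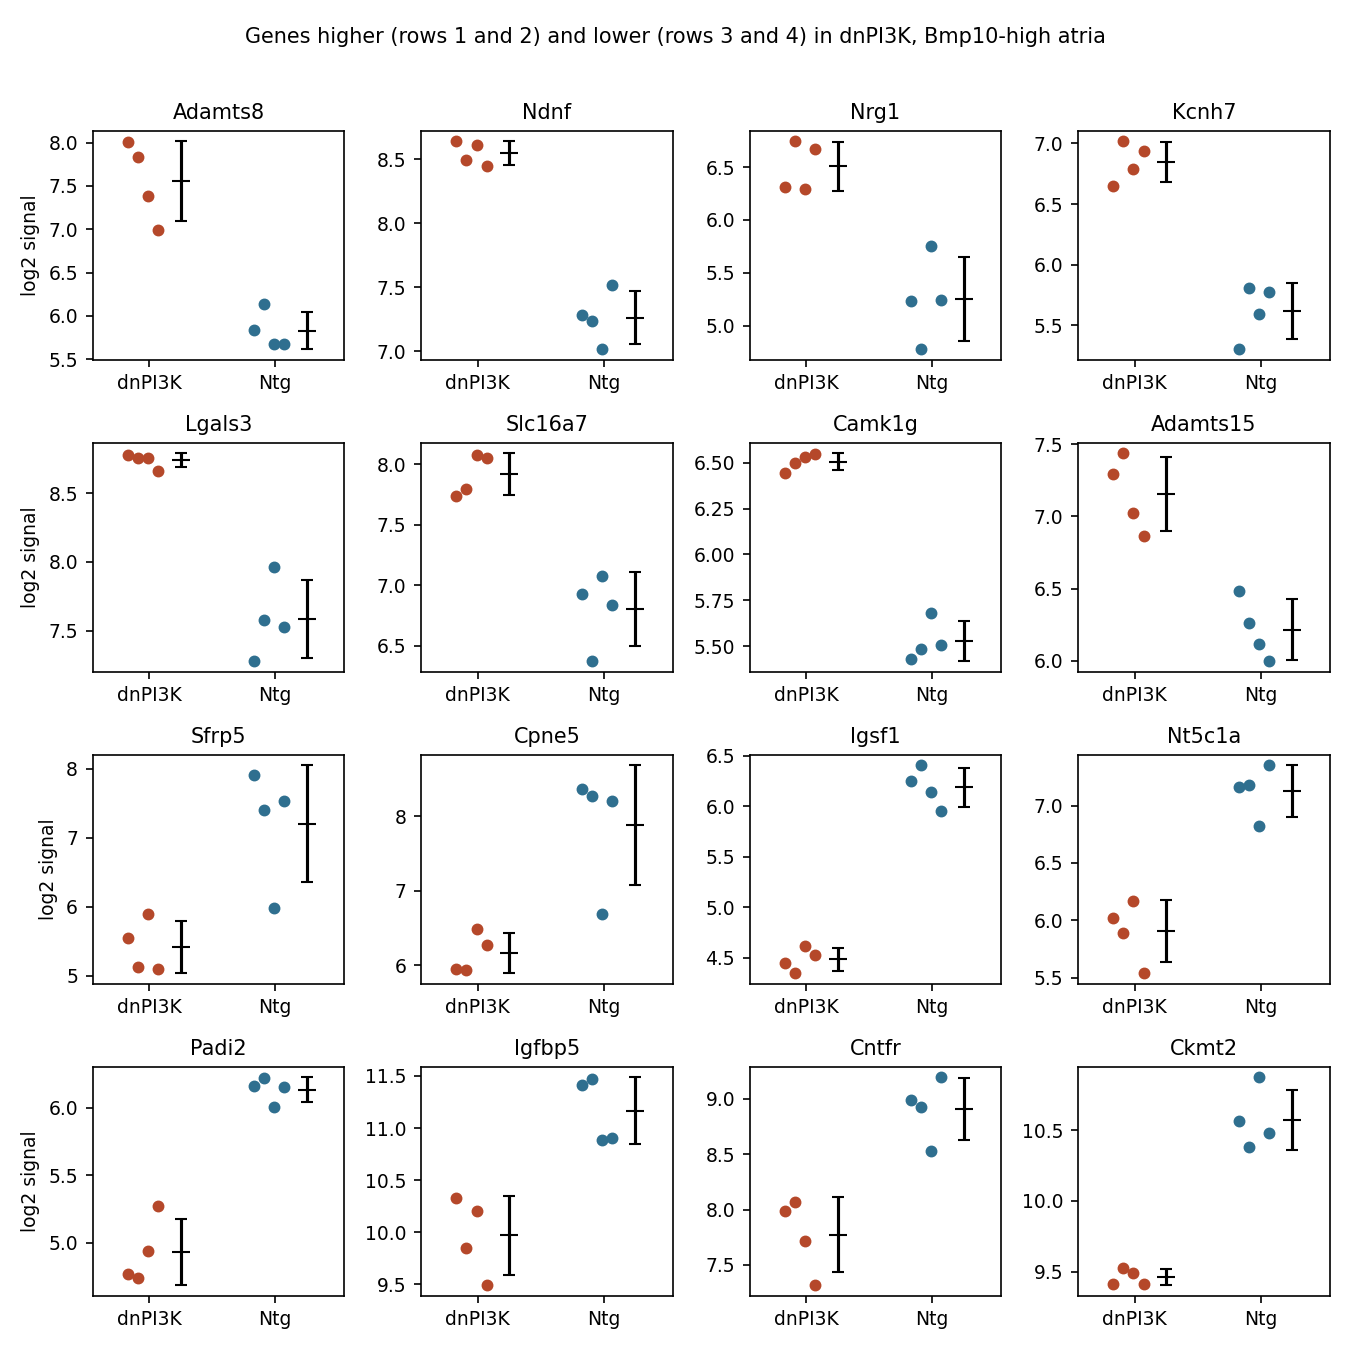
Log2 signal (vertical axes) of 8 genes higher and 8 genes lower in dnPI3K than in Ntg, for the 4 Bmp10-high atria of each genotype (points), with the mean and SD beside them. The groups do not overlap in any panel, which the choice of these genes required. In the panels of Sfrp5 and Cpne5 1 Ntg atrium, that of animal 1662, lies near the dnPI3K atria.

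Of 41 PI3K and insulin signalling genes tested, 3 rose and 1 fell, and 37 were not called. The list's median was -0.03 log2, the same as that of all genes to 2 decimals, and 0.03 log2 with quantile normalization. Pik3ca had 10.02, 9.74, 10.17 and 10.22 log2 in the dnPI3K atria, against 9.37, 9.15, 8.26 and 9.39 log2 in the Ntg atria. Pik3ca, the catalytic subunit p110 alpha, was 1.99-fold higher (0.99 ± 0.21 log2, adjusted p = 0.0344), with Ntg 1662 far below the other Ntg atria. Whether its probe set also reads the transgene was not tested. The rises of the receptor gene Igf1r (0.62 ± 0.12 log2, adjusted p = 0.0249) and of Irs1, the adaptor that couples insulin receptors to PI3K (0.59 ± 0.12 log2, adjusted p = 0.0302), were smaller. Igf1r lay at 7.97 to 8.39 log2 in dnPI3K and 7.43 to 7.76 log2 in Ntg and Irs1 at 7.50 to 7.89 log2 in dnPI3K and 7.00 to 7.19 log2 in Ntg. The fall was that of Igfbp5. Pik3r1, the regulatory subunit, was not called (-0.18 ± 0.15 log2, adjusted p = 0.694), nor were Insr (0.34 ± 0.11 log2, adjusted p = 0.21), Igf1 (0.54 ± 0.15 log2, adjusted p = 0.146) and Akt1 (-0.08 ± 0.14 log2, adjusted p = 0.874). None of the 3 rises held in every fit: Pik3ca was not called without dnPI3K 1507, 1648, 1660 or 3241 or Ntg 1657 (adjusted p up to 0.0942), Igf1r without dnPI3K 1507, 1648 or 1660 or Ntg 1301, 1657 or 1662 (up to 0.0868) and Irs1 without dnPI3K 1648 or 1660 or Ntg 1301, 1657, 1662 or 1834 (up to 0.107). With each array centred on its median Pik3ca (0.0669), Igf1r (0.0896) and Irs1 (0.0858) had adjusted p-values above the threshold, and with the labelled side in the model these were Pik3ca (0.386), Igf1r (0.296) and Irs1 (0.307). The dimmer probe set of Irs1 differed by 0.29 log2, and with the mean of both Irs1 was not called (adjusted p = 0.283). Of 29 FoxO target and atrophy genes limma called none, and 2 were higher and 2 lower at an unadjusted p under 0.05. That list holds Foxo1 (-0.06 ± 0.12 log2, adjusted p = 0.885) and the ubiquitin ligase gene Trim63 (-0.33 ± 0.19 log2, adjusted p = 0.515).

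Genes of amino acid supply changed in both directions. Asns had 6.24, 6.22, 6.69 and 6.55 log2 in the dnPI3K atria, against 7.53, 7.14, 8.24 and 7.22 log2 in the Ntg atria. Asns, which makes asparagine and is a known target of the transcription factor ATF4, was 2.15-fold lower (-1.11 ± 0.20 log2, adjusted p = 0.0181), with Ntg 1662 the highest of the Ntg atria. Slc7a5, a carrier of large neutral amino acids, fell 1.5-fold (-0.58 ± 0.11 log2, adjusted p = 0.0216), and Slc38a2, a carrier of glutamine and other small amino acids, rose 1.6-fold (0.68 ± 0.11 log2, adjusted p = 0.0075). Slc38a2 lay at 10.07 to 10.16 log2 in dnPI3K and 9.17 to 9.69 log2 in Ntg. These were the 3 genes called of 32 in the list of ATF4 and amino acid response genes, in which 27 had negative differences and the median was -0.18 log2 against -0.03 for all genes. Atf4 itself (-0.08 ± 0.11 log2, adjusted p = 0.82) and Trib3 (-0.11 ± 0.13 log2, adjusted p = 0.775) were not called. Asns was not called without dnPI3K 1507 or 1648 (adjusted p up to 0.0719) or with the labelled side in the model (adjusted p = 0.241). Slc7a5 was not called without dnPI3K 1648 or 1660 or Ntg 1301, 1657 or 1662 (up to 0.0925) or with the labelled side (adjusted p = 0.304). Slc38a2 was not called with all 4 genotypes in the fit (adjusted p = 0.0891) or with both arrays of each animal (adjusted p = 0.0694).

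The promoter of Asns is shown because the letters TGATGNAA, the core of the element that ATF4 is known to bind together with C/EBP factors, lie just before its start. The RefSeq window of 250 bases before to 50 after the start (build GRCm38.p6, chr6:7693160-7693459, minus strand, chromosome 6) reads as follows, with those letters in capitals.
Asns: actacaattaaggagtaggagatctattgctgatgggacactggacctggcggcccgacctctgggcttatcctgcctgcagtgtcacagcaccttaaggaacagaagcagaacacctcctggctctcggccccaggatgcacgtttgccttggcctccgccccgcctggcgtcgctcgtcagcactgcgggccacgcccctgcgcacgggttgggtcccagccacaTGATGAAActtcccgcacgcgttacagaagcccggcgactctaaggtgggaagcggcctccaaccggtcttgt
The same letters, searched on both strands, were in 5 of the 123 windows of genes called lower (4.07%), in 0 of 34 of genes called higher, in 2.35% of the 15089 windows of tested genes and in 3.97% of all 32851 windows. Away from the window edges, the letters were in the windows of Asns, of Me3, a mitochondrial malic enzyme, and of Slc26a10. They were also at 2 places in 1 window of Slc7a7, a carrier of cationic amino acids. Matches within 12 bases of a window's edge are counted above but not listed by gene. Slc7a7 and Slc26a10 were named after their values were seen. The stretches around the letters in Me3 (chr7:89632772-89632803, plus strand) and Slc7a7 (chr14:54418066-54418097, minus strand) were these.
Me3: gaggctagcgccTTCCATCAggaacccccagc
Slc7a7: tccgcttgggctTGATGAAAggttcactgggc
In Me3 the letters run on the opposite strand. Slc7a7 fell 1.73-fold (-0.79 ± 0.12 log2, adjusted p = 0.00457) and Me3 1.6-fold (-0.68 ± 0.11 log2, adjusted p = 0.00651). GTAAACA, which FoxO factors are known to bind, was in 3 of the 123 windows of lower genes (2.44%) and 1 of the 34 of higher genes (2.94%). Its share was 2.62% in the windows of tested genes, so these shares were near the background. The share of TGATGNAA in the windows of lower genes rests on 5 windows, and whether it differs from the background was not tested. A match describes the letters of a window only.

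Most energy metabolism genes had negative differences, and few of them were called. Negative signs were also common in lists outside energy metabolism: 35 of 37 proteasome genes had one (median -0.16 log2) and 16 of 21 heat shock genes (median -0.16 log2). Ckmt2 had 9.42, 9.53, 9.49 and 9.41 log2 in the dnPI3K atria, against 10.56, 10.38, 10.87 and 10.48 log2 in the Ntg atria. Ckmt2, the creatine kinase of mitochondria, was 2.16-fold lower (-1.11 ± 0.11 log2, adjusted p = 0.000324), and the 4 dnPI3K atria lay within 0.12 log2 of each other. Ckm had 9.87, 10.12, 10.28 and 10.08 log2 in the dnPI3K atria, against 10.68, 10.85, 10.81 and 10.58 log2 in the Ntg atria. Ckm, its cytosolic counterpart, was 1.56-fold lower (-0.64 ± 0.11 log2, adjusted p = 0.00827). They were the 2 called of 15 creatine and adenylate transfer genes, 14 of which had negative differences. Eno3 had 10.27, 9.94, 10.25 and 10.19 log2 in the dnPI3K atria, against 10.92, 11.01, 10.83 and 10.89 log2 in the Ntg atria. Eno3, the muscle enolase of glycolysis, was 1.68-fold lower (-0.75 ± 0.10 log2, adjusted p = 0.0018). Gys1, the muscle glycogen synthase, fell 1.93-fold (-0.95 ± 0.17 log2, adjusted p = 0.0135). Against these, the lactate and pyruvate carriers Slc16a1 (0.63 ± 0.13 log2, adjusted p = 0.0353) and Slc16a7 rose, which made 2 rises and 2 falls among 30 glycolysis and glucose transport genes with a list median of -0.24 log2.

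Among 26 tricarboxylic acid cycle genes 3 fell, Me3, Idh3b (-0.51 ± 0.10 log2, adjusted p = 0.0271) and Dlst (-0.44 ± 0.09 log2, adjusted p = 0.0327), the last 2 subunits of isocitrate dehydrogenase and of the oxoglutarate dehydrogenase complex. In this list 25 of 26 differences were negative, the median was -0.23 log2, and in 14 genes all dnPI3K values lay below all Ntg values, against 5.57% of all genes. Acsl6, an acyl-CoA synthetase (-0.95 ± 0.19 log2, adjusted p = 0.0267), and Acadm, the medium-chain acyl-CoA dehydrogenase (-0.40 ± 0.09 log2, adjusted p = 0.0428), were the 2 called of 38 fatty acid genes, which had a median of -0.23 log2. Limma called no subunit of the respiratory chain. At an unadjusted p under 0.05, 1281 of all 15219 genes were lower and 541 higher. Of 34 complex I genes 31 had negative differences (median -0.23 log2, 14 lower and 0 higher at that p), and of 41 genes of complexes II to V 36 (median -0.20 log2, 16 lower and 0 higher). The lowest p-values there, named after they were seen, were those of Uqcrc1 (-0.46 ± 0.11 log2, adjusted p = 0.08) and Cox7a1 (-0.51 ± 0.13 log2, adjusted p = 0.0923). Of 75 mitochondrial ribosomal protein genes 71 had negative differences (median -0.19 log2), and Mrpl45 alone was called (-0.60 ± 0.12 log2, adjusted p = 0.0249). Prdx3, a mitochondrial peroxide-removing enzyme, also fell (-0.53 ± 0.10 log2, adjusted p = 0.0262), as 1 of 33 antioxidant and metallothionein genes. Rxrg, a nuclear receptor, was the 1 gene called of 24 PGC-1 and ERR regulators (-0.79 ± 0.11 log2, adjusted p = 0.00303).

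With quantile normalization the medians of these metabolic lists stayed negative and became smaller in size. Centring each array on its median lowers the difference of every gene by the same amount here, so it could not turn a negative median. Complex I was at -0.28 log2 with each array centred on its median and -0.17 with quantile normalization, and the tricarboxylic acid cycle at -0.28 and -0.16. These scalings moved the median of all genes to -0.08 and to -0.0005. Without dnPI3K 3241 and Ntg 1662 the 2 medians were -0.13 and -0.20. Several single calls were lost when 1 animal was left out, which also leaves fewer arrays. The groups of these called genes did not overlap, so leaving out an animal could not change the direction of a difference. Over these omissions the difference of Dlst ran from -0.46 to -0.41 log2, and the complex I median from -0.31 to -0.18. Idh3b lost its call in 7 of the 8 omissions of 1 animal, all but dnPI3K 3241 (adjusted p up to 0.0872), Acadm in 7, all but dnPI3K 1660 (up to 0.144), Slc16a1 in 7, all but dnPI3K 1648 (up to 0.134), and Dlst in all 8 (up to 0.13). Acsl6 lost it without dnPI3K 1507, 1660 or 3241 or Ntg 1301, 1657 or 1834 (up to 0.104), Mrpl45 without dnPI3K 1507 or 1648 or Ntg 1657, 1662 or 1834 (up to 0.106), Prdx3 without dnPI3K 1507, 1648 or 1660 or Ntg 1657, 1662 or 1834 (up to 0.0905) and Gys1 without Ntg 1657 (0.0574). With the labelled side in the model the adjusted p-values were over 0.05 for Me3 (0.0604), Gys1 (0.0862), Ckm (0.0941), Mrpl45 (0.215), Prdx3 (0.214) and Acadm (0.24), and for Dlst (0.33), Idh3b (0.331) and Slc16a1 (0.375). Ckmt2, Eno3, Acsl6, Rxrg and Slc16a7 kept their calls there.

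**Figure D3:**
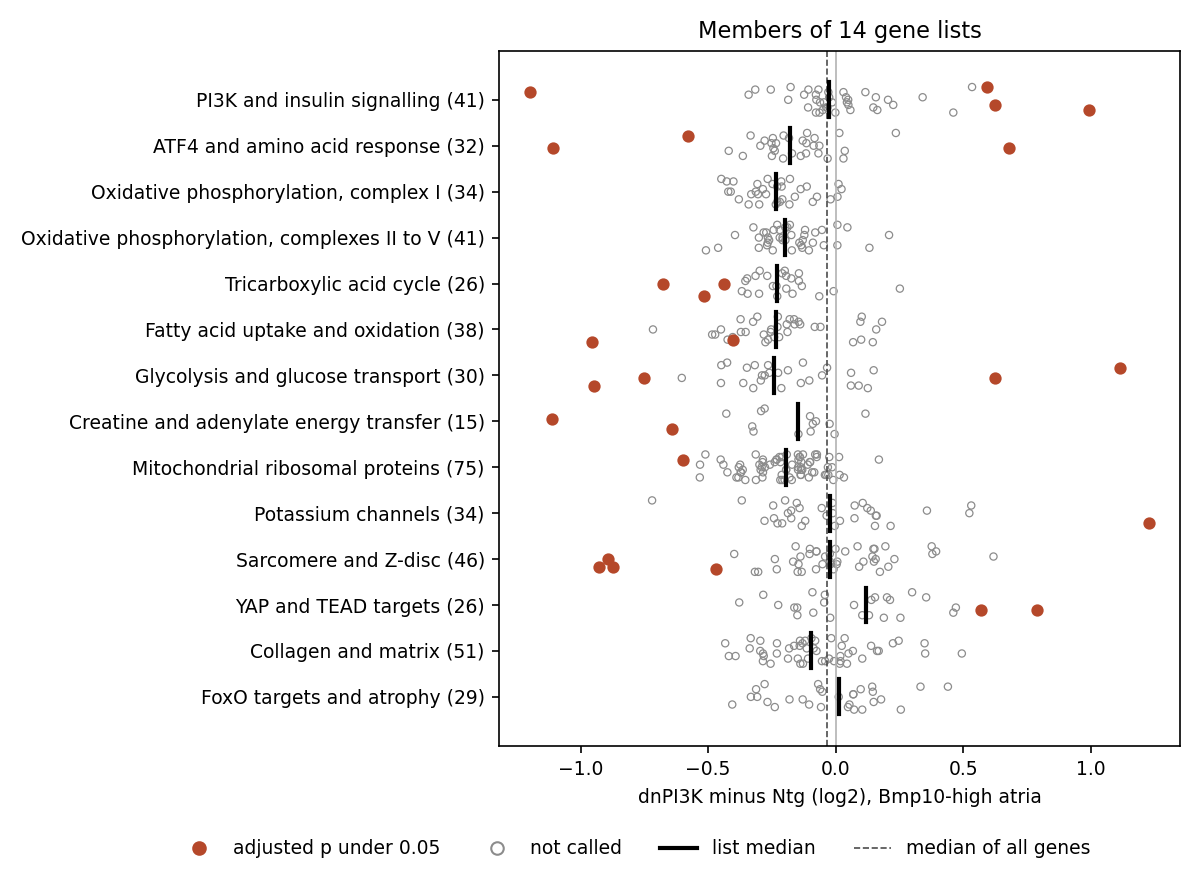
Difference of dnPI3K minus Ntg in Bmp10-high atria (horizontal axis, log2) for each tested member of 14 gene lists, with the number tested in brackets, filled points for called genes, a black bar for the list median and a dashed line for the median of all genes, -0.03. The 7 lists of energy metabolism and mitochondrial ribosomes have medians between -0.24 and -0.15, and the sarcomere, potassium channel and PI3K lists have medians near that of all genes.

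Ion channel genes changed singly. Kcnh7 was the 1 gene called of 34 in the list of potassium channels. Kcnc2, a potassium channel gene outside that list, fell (-0.83 ± 0.18 log2, adjusted p = 0.0425), and was named after its values were seen. The transient outward channel gene Kcnd2 had 6.79, 7.40, 7.61 and 6.83 log2 in dnPI3K, against 7.89, 7.79, 7.86 and 7.97 log2 in Ntg, without passing the test (-0.72 ± 0.17 log2, adjusted p = 0.0639). The atrial channel genes Kcna5 (-0.23 ± 0.12 log2, adjusted p = 0.474) and Kcnj3 (0.07 ± 0.11 log2, adjusted p = 0.846) were not called. Of 31 sodium and calcium channel and connexin genes 2 fell, both auxiliary subunits of calcium channels. Outside that list, and named after their values were seen, the sodium channel gene Scn7a (0.44 ± 0.09 log2, adjusted p = 0.0284) and the cation leak channel gene Nalcn (0.60 ± 0.13 log2, adjusted p = 0.041) rose. Cacna2d3 lay at 5.43 to 5.87 log2 in dnPI3K and 6.23 to 6.76 log2 in Ntg and fell 1.78-fold (-0.83 ± 0.14 log2, adjusted p = 0.00963), and Cacna2d2 fell 1.54-fold (-0.62 ± 0.12 log2, adjusted p = 0.0262). Cacna2d2 was not called without dnPI3K 1648 or Ntg 1301, 1657, 1662 or 1834 (adjusted p up to 0.0921). With the labelled side in the model the adjusted p-values of the named channel and receptor genes that lost their calls were Cacna2d3 (0.0566), Cacna2d2 (0.107) and Chrm3 (0.133). Of 17 genes of the sinoatrial pacemaker the same Cpne5 and Igfbp5 fell, while the pacemaker channel Hcn4 (-0.32 ± 0.18 log2, adjusted p = 0.522) and the transcription factors Shox2 (-0.17 ± 0.15 log2, adjusted p = 0.693) and Tbx3 (-0.20 ± 0.12 log2, adjusted p = 0.579) were not called. Chrm3, a muscarinic receptor, rose 1.51-fold (0.59 ± 0.11 log2, adjusted p = 0.0249), the 1 call among 19 autonomic receptor genes, and was not called without dnPI3K 1507 or 1648 or Ntg 1657, 1662 or 1834 (adjusted p up to 0.115).

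The contractile genes called in the sarcomere list were lower. Fhl2 had 8.53, 9.18, 8.95 and 8.67 log2 in the dnPI3K atria, against 9.98, 9.84, 9.45 and 9.76 log2 in the Ntg atria. Fhl2, a LIM protein of the Z-disc region, was 1.9-fold lower (-0.93 ± 0.15 log2, adjusted p = 0.00651). Myl1 had 8.46, 8.01, 8.55 and 8.14 log2 in the dnPI3K atria, against 9.33, 9.02, 9.01 and 9.28 log2 in the Ntg atria. Myl1, an alkali myosin light chain best known from fast skeletal muscle, was 1.83-fold lower (-0.87 ± 0.13 log2, adjusted p = 0.00539). Tmod4 (-0.89 ± 0.16 log2, adjusted p = 0.0147) and Tmod1 (-0.47 ± 0.10 log2, adjusted p = 0.0378), which cap actin filaments, made 4 falls and 0 rises among 46 sarcomere genes, whose median of -0.02 log2 was near that of all genes. Casq1, which buffers calcium in the sarcoplasmic reticulum, had 6.95, 7.56, 7.49 and 7.16 log2 in dnPI3K, against 8.29, 8.89, 8.28 and 7.68 log2 in Ntg (-0.99 ± 0.21 log2, adjusted p = 0.0362), the 1 call of 26 calcium handling genes. Myh7 was not called (0.23 ± 0.15 log2, adjusted p = 0.584). Ankrd23, a stretch-responsive ankyrin repeat protein of muscle, fell 1.97-fold (-0.98 ± 0.18 log2, adjusted p = 0.019), and Xirp2, an actin-binding protein of the cell junction, 1.57-fold (-0.65 ± 0.12 log2, adjusted p = 0.0235). Lrrc10, a myocyte protein, rose 1.81-fold (0.85 ± 0.15 log2, adjusted p = 0.0123). Casq1 kept its call in 1 of 8 omissions of 1 animal, that of Ntg 1834, and Tmod1 in 1, that of Ntg 1662 (adjusted p up to 0.114 and 0.167). Tmod4 lost its call without dnPI3K 1507 or 1648 or Ntg 1662 or 1834 (up to 0.0597), Ankrd23 without dnPI3K 1660 or Ntg 1657 (up to 0.0776), Xirp2 without dnPI3K 1507 or 1660 or Ntg 1657, 1662 or 1834 (up to 0.0987) and Lrrc10 without dnPI3K 1648 or Ntg 1657 (up to 0.0574). None of the called genes from Fhl2 to Lrrc10 was called with the labelled side in the model, where the adjusted p-values were Fhl2 (0.0556), Myl1 (0.0604), Tmod4 (0.118) and Tmod1 (0.071), and Casq1 (0.257), Ankrd23 (0.24), Xirp2 (0.088) and Lrrc10 (0.144). The dimmer probe set of Tmod1 differed by -0.11 log2, and with the mean of both Tmod1 was not called (adjusted p = 0.328).

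Classical stress genes were not called apart from Lgals3 and Xirp2, 2 of 26 in their list. Nppb had 11.82, 11.91, 11.87 and 11.61 log2 in the dnPI3K atria, against 10.87, 11.20, 11.71 and 10.75 log2 in the Ntg atria. Nppb, the B-type natriuretic peptide, differed by 0.67 ± 0.16 log2, adjusted p = 0.0844, and Ntg 1662 lay within the range of the dnPI3K atria. Without Ntg 1662 the difference was 0.86 ± 0.12 log2 with an adjusted p of 0.00438. Nppa (-0.03 ± 0.08 log2, adjusted p = 0.919), Ankrd1 (0.13 ± 0.08 log2, adjusted p = 0.555) and Acta1 (-0.32 ± 0.14 log2, adjusted p = 0.39) were not called. Stk4, the gene of Mst1, was not called either (0.11 ± 0.14 log2, adjusted p = 0.804).

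Among growth signals, Nrg1 rose and Egf, a ligand of the EGF receptor, fell 1.66-fold (-0.73 ± 0.11 log2, adjusted p = 0.00446), while the receptors Erbb2 (0.14 ± 0.13 log2, adjusted p = 0.733) and Erbb4 (-0.0009 ± 0.13 log2, adjusted p = 0.999) were not called. These were 2 of 19 genes of that list. Dusp4 and Phlda1 rose and the shear-responsive transcription factor Klf2 fell (-0.65 ± 0.12 log2, adjusted p = 0.0137) among 43 MAP kinase feedback and immediate early genes. Klf2 was not called without Ntg 1834 (adjusted p = 0.0586) or with the labelled side (adjusted p = 0.105). Of 26 YAP and TEAD target genes 2 rose and none fell, with a list median of 0.12 log2 that stayed above 0 under both other scalings (0.07 centred and 0.10 quantile normalized). Ccn2 had 11.06, 10.89, 10.81 and 10.25 log2 in the dnPI3K atria, against 9.98, 9.93, 10.23 and 9.70 log2 in the Ntg atria. Ccn2, the connective tissue growth factor, was 1.73-fold higher (0.79 ± 0.16 log2, adjusted p = 0.0276). Nt5e, which makes adenosine outside the cell, was 1.49-fold higher (0.57 ± 0.12 log2, adjusted p = 0.0342). Ccn2 lost its call without dnPI3K 1507, 1648 or 1660 or Ntg 1301, 1657 or 1834 (up to 0.0967) and Nt5e without dnPI3K 1507, 1648, 1660 or 3241 or Ntg 1657, 1662 or 1834 (up to 0.157), and with each array centred on its median the adjusted p-values were 0.0669 for Ccn2 and 0.108 for Nt5e. With the labelled side in the model they were Ccn2 (0.0604) and Nt5e (0.213).

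Limma called none of 51 collagen and matrix genes, with 1 higher and 3 lower at an unadjusted p under 0.05, and Col1a1 had 10.26, 9.45, 9.33 and 8.75 log2 in dnPI3K, against 10.16, 10.04, 9.55 and 9.16 log2 in Ntg (-0.28 ± 0.27 log2, adjusted p = 0.731). Adamts8 and Adamts15 were the 2 called of 30 in the list of ADAMTS and ADAM proteases, while Adam11, a family member outside the list that was named after its values were seen, fell (-0.58 ± 0.11 log2, adjusted p = 0.0279). Also without a call by limma were 28 Hippo pathway genes (2 higher and 2 lower at an unadjusted p under 0.05), 38 TGF-beta and BMP genes, Bmp10 included (3 and 5), 33 cell cycle genes (1 and 6), 20 interferon-stimulated genes (2 and 1), 24 genes of the unfolded protein response (0 and 2), 21 heat shock genes (0 and 6) and 37 proteasome genes (0 and 6).

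Adm had 8.45, 8.19, 8.40 and 8.35 log2 in the dnPI3K atria, against 9.42, 9.41, 9.04 and 8.99 log2 in the Ntg atria. Adm, the vasodilator peptide adrenomedullin, was 1.83-fold lower (-0.87 ± 0.12 log2, adjusted p = 0.00303). Agt had 6.54, 6.49, 6.59 and 6.17 log2 in the dnPI3K atria, against 7.36, 7.42, 7.35 and 7.23 log2 in the Ntg atria. Agt, the precursor of angiotensin, was 1.86-fold lower (-0.89 ± 0.12 log2, adjusted p = 0.00203). Ednrb had 7.61, 7.79, 7.71 and 7.55 log2 in the dnPI3K atria, against 8.60, 8.81, 8.44 and 8.18 log2 in the Ntg atria. Ednrb, an endothelin receptor, was 1.79-fold lower (-0.84 ± 0.13 log2, adjusted p = 0.00588). In each of these 3 genes all dnPI3K atria lay below all Ntg atria, as they did for 98 of the 101 genes called lower. Ednrb was not called with the labelled side in the model (adjusted p = 0.0693). Agt and Ednrb were the 2 called of 13 endothelin and angiotensin genes, and the ligand gene Edn1 was not called (0.47 ± 0.16 log2, adjusted p = 0.236). Egln3, a prolyl hydroxylase induced by low oxygen (-0.86 ± 0.12 log2, adjusted p = 0.00362), and Stc1, a secreted glycoprotein hormone (-1.03 ± 0.14 log2, adjusted p = 0.00236), fell as well and were named after their values were seen.

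Markers of other cell types were examined as whole lists. Limma called none of 17 fibroblast markers (2 higher and 1 lower at an unadjusted p under 0.05), 25 macrophage (1 and 1), 8 endocardial (0 and 2) or 15 smooth muscle and pericyte markers (1 and 1). It called none of 15 mesothelial (1 and 0), 15 Schwann and neuronal (1 and 1), 10 lymphocyte and mast cell (1 and 0) or 13 dendritic cell and MHC class II markers (0 and 0). The mean level of the fibroblast list was 8.53 to 9.14 log2 in dnPI3K and 8.64 to 9.19 in Ntg, and that of the macrophage list 7.08 to 7.50 in dnPI3K and 7.07 to 7.54 in Ntg. Aqp1, a water channel, was the 1 call of 18 endothelial markers (-0.78 ± 0.16 log2, adjusted p = 0.0369). That list had 15 negative differences, a median of -0.16 log2, and mean levels of 8.37 to 8.81 in dnPI3K and 8.61 to 8.96 in Ntg. Aqp1 was not called without dnPI3K 1648 or 3241 or Ntg 1301, 1657 or 1662 (adjusted p up to 0.134) or with the labelled side (adjusted p = 0.427). Slc36a2, an amino acid carrier known from fat, fell 1.92-fold (-0.94 ± 0.12 log2, adjusted p = 0.00138), while 12 of 13 adipocyte markers were not called and their mean level was 6.80 to 7.28 in dnPI3K and 6.83 to 7.40 in Ntg. The calls of Myl1 and Casq1 also stand in the list of 16 skeletal muscle markers, of which 12 had negative differences and 0 were higher and 6 lower at an unadjusted p under 0.05. The mean level of that list was 5.76 to 5.94 in dnPI3K and 6.00 to 6.08 in Ntg, without overlap. This was not particular to skeletal muscle markers. The mean levels of the complex I list did not overlap either, with 9.14 to 9.49 in dnPI3K and 9.56 to 9.62 in Ntg, nor did those of several other metabolic lists. Of 9 ventricular markers Lrrc10 rose and Fhl2 fell, with mean levels of 6.41 to 7.55 in dnPI3K and 6.57 to 6.99 in Ntg. The part of other cells in the called differences was not tested.

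The other atrium of the same 8 animals, low in Bmp10, had 614 genes called in dnPI3K against Ntg (4.03%), 232 higher and 382 lower. The count was 351 without dnPI3K 1507, 384 without dnPI3K 1660 and 409 without Ntg 1662. Both comparisons come from the same animals, so they are not independent. In all, 91 genes were called in both, 65.9% of the Bmp10-high calls and 14.8% of the Bmp10-low calls, and 90 of them had the same sign. Adamts8 differed by 1.73 ± 0.19 log2 (SE) in the Bmp10-high atria and 2.51 ± 0.36 in the Bmp10-low ones. In the same order, Lgals3 differed by 1.15 ± 0.13 and 1.45 ± 0.16, and Ndnf by 1.28 ± 0.12 and 0.98 ± 0.12. Pik3ca differed by 0.99 ± 0.21 and 0.85 ± 0.11, Ckmt2 by -1.11 ± 0.11 and -0.93 ± 0.13, and Asns by -1.11 ± 0.20 and -1.65 ± 0.24. Whether the dnPI3K effect differed between the atria was tested on each animal's Bmp10-high minus Bmp10-low difference, and 2 genes of 15219 were called (0.0131%). At an unadjusted p under 0.05 there were 1326.

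The first of the 2 was Adm. In the Bmp10-low atria it had 6.98, 6.85, 6.57 and 6.90 log2 in dnPI3K, against 6.52, 6.42, 6.35 and 6.21 log2 in Ntg, a difference of 0.45 ± 0.11 (adjusted p = 0.0361). It was thus lower in the dnPI3K atria with high Bmp10 (-0.87 ± 0.12) and higher in those with low Bmp10, without overlap in either. The difference of the effects was -1.32 ± 0.14 log2 (adjusted p = 0.00381), and it stayed called when any 1 animal was left out (adjusted p up to 0.032). The other was Plppr5, a membrane protein related to lipid phosphatases. It had 5.65, 5.53, 6.36 and 5.60 log2 in dnPI3K, against 6.61, 6.79, 5.85 and 6.71 log2 in Ntg, in the Bmp10-high atria, and 4.70, 4.70, 5.24 and 4.52 log2 in dnPI3K, against 6.74, 6.55, 5.81 and 6.86 log2 in Ntg, in the Bmp10-low ones. The difference of the effects was 0.99 ± 0.14 log2 (adjusted p = 0.0336), and it was not called without Ntg 1301, Ntg 1662, Ntg 1834, dnPI3K 1507 or dnPI3K 1660 (adjusted p up to 0.129). The next smallest p-values were those of Hmcn2 (adjusted p = 0.0574), Lrtm1 (adjusted p = 0.101) and Ier2 (adjusted p = 0.101), which were not called. Lrtm1 differed by -0.74 ± 0.38 in the Bmp10-high atria and by -2.94 ± 0.14 in the Bmp10-low ones. With high Bmp10, dnPI3K 1648 had 7.19 log2 and the other 3 dnPI3K atria 4.83 to 5.69.

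Of the 138 genes called in the Bmp10-high atria, 91 were also called in the Bmp10-low ones. Padi2, Igfbp5 and Stc1 are given as examples of the others, with a fall called in the Bmp10-high atria and not in the Bmp10-low ones. The difference of the effects was not called for any of them, so no difference between the atria is read from this. Padi2 averaged 4.93 log2 in dnPI3K and 6.13 log2 in Ntg with high Bmp10, against 4.97 in dnPI3K and 5.08 in Ntg with low Bmp10 (difference of the effects -1.09 ± 0.18 log2, adjusted p = 0.105). Igfbp5 averaged 9.97 in dnPI3K and 11.17 in Ntg with high Bmp10, against 9.85 in dnPI3K and 9.96 in Ntg with low Bmp10 (difference of the effects -1.10 ± 0.24 log2, adjusted p = 0.19). Stc1 averaged 6.03 in dnPI3K and 7.06 in Ntg with high Bmp10, against 6.23 in dnPI3K and 6.32 in Ntg with low Bmp10 (difference of the effects -0.95 ± 0.18 log2, adjusted p = 0.131). With low Bmp10 the adjusted p-values were 0.72 for Padi2, 0.887 for Igfbp5 and 0.755 for Stc1. In all 3 genes the highest mean was that of Ntg with high Bmp10. Nrg1 rose in both, by 1.26 ± 0.18 log2 in the Bmp10-high atria and by 2.24 ± 0.24 in the Bmp10-low ones (difference of the effects -0.98 ± 0.21 log2, adjusted p = 0.19).

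**Figure D4:**
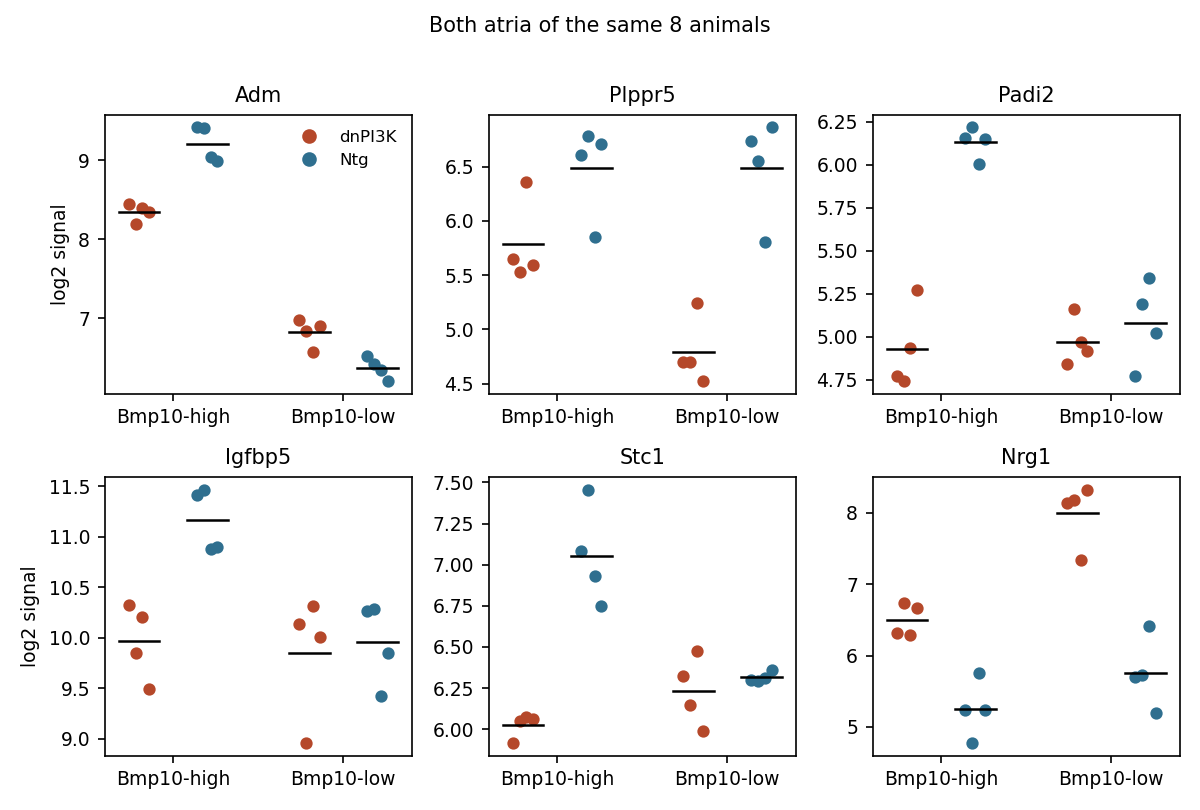
Log2 signal (vertical axes) of 6 genes in the Bmp10-high and Bmp10-low atria of the same 4 dnPI3K and 4 Ntg animals (points), with a bar at each mean. For Adm the dnPI3K atria lie below Ntg where Bmp10 is high and above Ntg where it is low. For Padi2, Igfbp5 and Stc1 the highest mean is that of Ntg with high Bmp10, and the difference of the effects was not called.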

How the data were processed

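Labels give 1 left and 1 right atrial array per animal. The authors deposited 1 table of log2 signals for 35512 probe sets on 32 arrays, which was used as deposited. Affymetrix Expression Console and PLIER are named in the submitters' processing notes, and their settings are not given in the sources used here. That the scale is log2 was read from the range of values, 1.16 to 14.08.

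Of the probe sets, 21789 had 1 gene symbol, 1621 several and 12102 none. The brightest probe set stood for each of 19938 genes, and the 15219 genes with a mean of at least 4.48 log2 (the 30th percentile) were tested. The 4 dnPI3K and 4 Ntg arrays with Bmp10 above 9 log2 were compared with limma 3.58.1 (R 4.3.3; lmFit, eBayes with a trend, two-sided), with Benjamini-Hochberg adjustment over all genes. Called means an adjusted p under 0.05, and every ± after a difference is the standard error of that fit. The animal numbers pair the 2 atria, so the difference between atria was fitted on each animal's Bmp10-high minus Bmp10-low value. The code was tested on simulated data.

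Genes named by rule were the 12 largest rises and 12 largest falls among called genes without overlap, up to 4 called members of each gene list, 8 fixed genes and the 5 smallest p-values of the difference between atria. Other list members are given as values. The members and the gene lists were chosen with earlier results of these data known. Promoter windows are RefSeq's (GRCm38.p6) and were matched by gene identifier, with 111 of the 138 called genes found. Alternatives covered scaling, filters, probe sets, variance models, array weights, labelled side and left-out animals.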

Additional observations from a re-analysis of the deposited data

Results flagged for a closer look

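Of 142 groups of 4 atria examined over the genes named here, 7 held 1 value set apart from the other 3 by Dixon's criterion, which chance alone gives in about 1 of 20 groups. In Ntg 1662, Cpne5 had 6.69 log2 against 8.20 to 8.37 in the other Ntg atria, and Gys1 had 8.30 log2 against 8.49 to 8.53. In the same atrium Hmcn2 had 5.41 log2 against 5.71 to 5.77, and Idh3b 11.72 log2 against 11.35 to 11.41. In Ntg 1834, Cacna2d2 had 9.23 log2 against 8.97 to 9.01. In dnPI3K 3241, Klf2 had 7.40 log2 against 7.74 to 7.76 in the other dnPI3K atria. In dnPI3K 1660, Plppr5 had 6.36 log2 against 5.53 to 5.65.

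The dnPI3K effect differed between the Bmp10-high and Bmp10-low atria by limma for Adm, by -1.32 log2, and for Plppr5, by 0.99 log2. Only the result for Adm held when any 1 animal was left out.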

How the results depend on the processing

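Of the 60 called genes named by rule, 33 kept their call when any 1 animal was left out. None changed direction in the 21 alternatives run, but most of these could not change it. The groups of these genes did not overlap, so leaving out arrays keeps the sign, and other variance models leave the difference as it is. The 138 calls (37 higher and 101 lower in dnPI3K) became 68 to 124 when 1 animal was left out, with 17 to 38 higher and 51 to 86 lower. Estimated array weights gave 275 calls, 86 higher and 189 lower, and both arrays of each animal with the animal as a random block gave 228, of which 173 were lower. The labelled side as a covariate gave 47 calls, 16 higher and 31 lower, and arrays labelled left alone gave 32, 15 higher and 17 lower. Arrays centred on their own medians gave 19 higher genes. Quantile normalization, other filters, mean probe sets, eBayes without a trend or robust, and all 4 genotypes in the fit gave 105 to 150 calls. Without both dnPI3K 3241 and Ntg 1662, an alternative chosen after seeing the data, 146 genes were called. Nppb, not called in the fit reported, was called in 5 of the alternatives, including those with array weights (adjusted p = 0.00687) and arrays labelled left alone (adjusted p = 0.041).

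For the difference between atria, the fit with no replicate block, on 16 unpaired arrays, called 1 gene, Adm, against 2 with the animals paired. Leaving out 1 animal gave 1 to 5 calls, a trend or centred arrays gave 3, and Plppr5 was lost without both dnPI3K 3241 and Ntg 1662 (adjusted p = 0.134). In the Bmp10-low atria, leaving out 1 animal, also chosen after seeing the data, gave 351 to 529 calls against 614. The causes of these shifts were not tested. With 4 arrays a group, the number of arrays limits the precision: the median standard error was 0.13 log2, and signal over background was not given per probe set.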

Other observations

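The called genes below stand outside the rule for named genes and were chosen after their values were seen. Among them, 3 genes of protein synthesis were lower in dnPI3K. No list of translation factors was examined, so these 3 do not describe protein synthesis as a whole. Eif4e, which binds the cap of messenger RNA, differed by -0.56 ± 0.11 log2, adjusted p = 0.0284, Eif5a, a translation factor, by -0.56 ± 0.12 log2, adjusted p = 0.0428, and Eef1a2, the muscle and nerve form of the elongation factor, by -0.57 ± 0.10 log2, adjusted p = 0.0138. Eif4e lay at 8.73 to 8.96 log2 in dnPI3K and 9.25 to 9.67 log2 in Ntg. The other probe sets of these genes gave smaller differences, -0.51 and -0.07 log2 for Eif4e and -0.13 log2 for Eif5a.

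Single genes of mitochondria, membrane repair and autophagy fell too. Aldh1l2 had 6.15, 5.76, 6.45 and 6.22 log2 in the dnPI3K atria, against 7.13, 6.94, 7.19 and 7.42 log2 in the Ntg atria. Aldh1l2, a mitochondrial folate enzyme, was 2.03-fold lower (-1.02 ± 0.15 log2, adjusted p = 0.00412). Ppif, the mitochondrial cyclophilin, differed by -0.70 ± 0.13 log2, adjusted p = 0.0202, and Trim72, a membrane repair protein of muscle, by -0.98 ± 0.16 log2, adjusted p = 0.00651. Map1lc3a, a protein of autophagosomes, differed by -0.75 ± 0.12 log2, adjusted p = 0.00651. Mapk10, a JNK family kinase, was 2.06-fold lower (-1.04 ± 0.15 log2, adjusted p = 0.00433), and its dimmer probe set, under the filter on low signals, differed by -0.17 log2. Among the rises, Emb, a membrane protein known to accompany monocarboxylate carriers, differed by 0.90 ± 0.11 log2, adjusted p = 0.00171, and the copper protein gene Cp by 0.69 ± 0.09 log2, adjusted p = 0.00171. Prkag2, a subunit of AMP-activated kinase, differed by 0.50 ± 0.10 log2, adjusted p = 0.0235.

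Of the 138 called genes, 133 had a difference of the same sign in the Bmp10-low atria of the same animals. The 5 others were Adm, Arc (-0.64 ± 0.11 with high Bmp10 and 0.30 ± 0.18 with low Bmp10), Hdc (-0.76 ± 0.13 and 0.12 ± 0.10), Sele (-0.59 ± 0.12 and 0.19 ± 0.21) and the gene model Gm13213 (-0.54 ± 0.11 and 0.02 ± 0.11). The difference between atria was called by limma for Adm and not for Arc (adjusted p = 0.208), Hdc (0.118), Sele (0.378) or Gm13213 (0.334).

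The letters ACGTG, which hypoxia-inducible factors are known to bind, were searched on both strands and found in 22.8% of the 123 promoter windows of genes called lower. They were in 17.6% of the 34 windows of genes called higher, against 23.7% of the windows of all tested genes.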
